A study of Homo sapiens with 8 samples.

Results

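The loci of 5 genes, MUC19, PTPRB, ENPP3, SLC37A1 and PDK3, were chosen because their branch site clusters were listed mainly for cells expressing SF3B1 K700E. All clusters of 4 deposited tables that touched the hg19 span of a gene were taken, which gave 139 of 122826 clusters. K562, an erythroleukemia cell line, had been engineered to express SF3B1 with a 3xFlag tag, either wild type (WT) or with the K700E substitution. After nuclease treatment of nuclear extracts, U2 complexes were pulled down through SF3A2, in 3 libraries of either genotype, or through the Flag tag, in 1 library of either, so that 8 libraries entered the tables. The 3 SF3A2 libraries of a genotype share 1 table, as does the single Flag library. Each table lists read clusters with branch points ranked from 1 to 3, and ties can give a cluster more than 3 of them. With 1 table for each antibody and genotype, no value below has a replicate error. The sources used here name 1 engineered line per genotype and do not give the number of clones behind it. The substitution and any other difference between the lines cannot be told apart, nor can fewer cells with a transcript and less of it per cell.

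The U2 snRNP pairs with the branch site near the 3′ end of an intron before splicing. SF3B1 holds that pairing, and SF3A2 is a second protein of the same particle. A read cluster is therefore taken here to mark a site in an RNA that carried U2 when the extract was made. A gene with many introns can give many clusters along its length. Whether each cluster comes from an intron of a nascent or unspliced transcript was not tested. A list of clusters does not tell more transcript from more U2 bound to each transcript. SF3B1 K700E, a recurrent substitution in myeloid neoplasms, is best known for a changed choice of branch point and 3′ splice site in single introns. The 5 genes have unrelated roles. MUC19 encodes a gel-forming mucin, PTPRB the vascular endothelial receptor tyrosine phosphatase VE-PTP, and ENPP3 the cell surface nucleotide pyrophosphatase CD203c, a marker of basophils and mast cells. SLC37A1 encodes a glucose-6-phosphate and phosphate exchanger of the endoplasmic reticulum, and PDK3 a kinase that inhibits the pyruvate dehydrogenase complex.

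The tables differed in size, with 116273 clusters for SF3A2 K700E, 86103 for SF3A2 WT, 73582 for Flag K700E and 69448 for Flag WT. Read numbers are not part of them, and the depth behind a cluster is therefore unknown. Bracketed ranges are 95% Wilson intervals over clusters. They cover counting error only and treat neighbouring clusters as independent. Among marker genes of the line, TFRC (the transferrin receptor) held 39 clusters and GATA1 (an erythroid transcription factor) held 10, with 21 and 4 of them in all 4 tables. Of the markers of other cell types, CD3E (T cells) held 0 clusters and ALB (liver) held 1, in the SF3A2 K700E table alone.

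All 139 clusters were listed in K700E tables only. MUC19 had 65 clusters in SF3A2 K700E, 38 in Flag K700E, 0 in SF3A2 WT and 0 in Flag WT. PTPRB had 24 and 19 in the K700E tables and 0 in each WT table. These are the loci with the most clusters, and in both the WT tables were empty from end to end.

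ENPP3 had 23 clusters in SF3A2 K700E and 16 in Flag K700E, again with 0 in either WT table. SLC37A1 and PDK3 had the same numbers as each other, 13 in SF3A2 K700E, 10 in Flag K700E and 0 in both WT tables. The lists of the genotypes therefore did not overlap at any of the 5 loci. Over all clusters of the genome, 25.0% were in no WT table, and 5.88% were in both K700E tables and no WT table. At the 5 loci 92 of 139 were in both K700E tables (66.2%, 58.0 to 73.5%), 46 in SF3A2 K700E alone and 1, in PTPRB, in Flag K700E alone. Because the loci were chosen by this listing, these counts describe the choice and are given without a test. With a floor of 3 counts, 0 of 139 clusters corresponds to a share of up to 2.16%, and 0 of the 13 of SLC37A1 or PDK3 to up to 23.1%. These limits reflect the number of clusters only. Since the choice of loci favoured a count of 0, they bound no share beyond it.

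**Figure D1:**
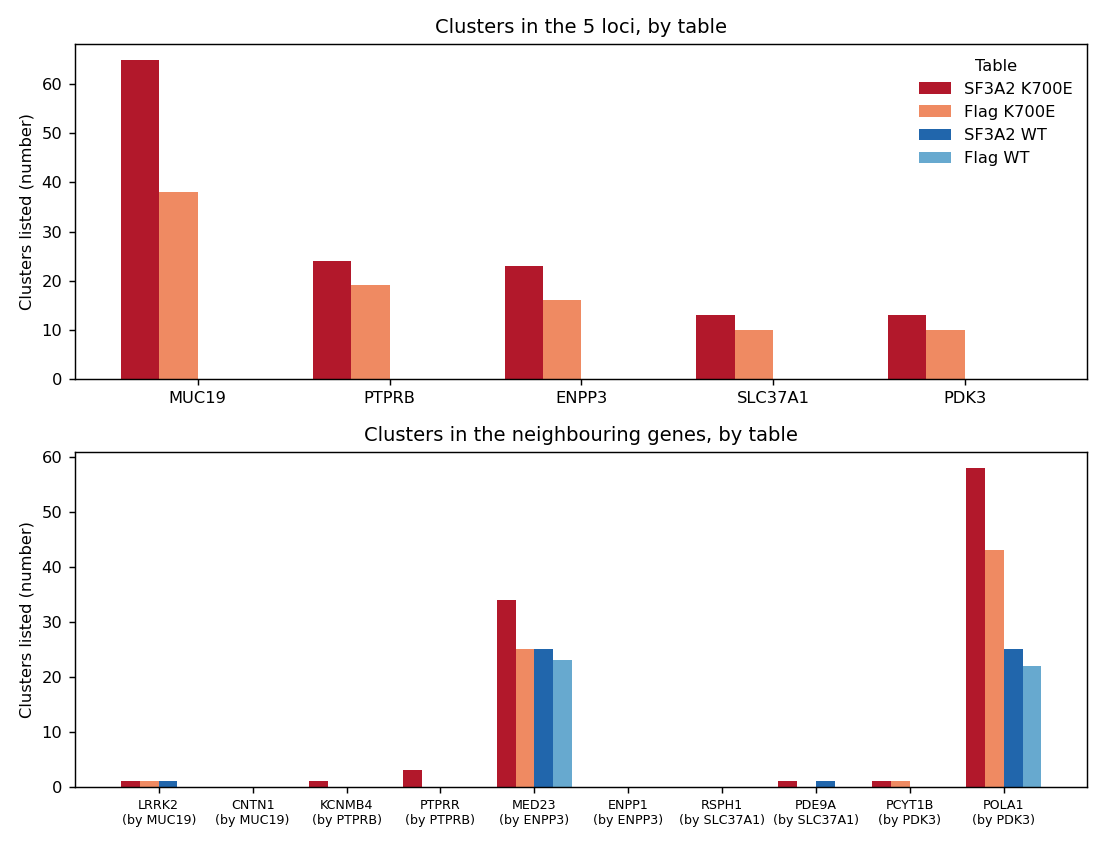
Number of clusters listed in each of the 4 tables for the 5 loci (upper panel) and for the 10 neighbouring genes (lower panel), 1 bar per table. The WT bars are at 0 at all 5 loci, whereas MED23 and POLA1 have 25 clusters each in SF3A2 WT and 23 and 22 in Flag WT.

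The first question was whether whole transcripts or single introns differed. At the 5 loci the K700E clusters ran along the gene and no WT-listed cluster lay among them. From the first to the last cluster they covered 128 kb of MUC19, 115 kb of PTPRB, 108 kb of ENPP3, 61.5 kb of SLC37A1 and 73.2 kb of PDK3. The median distance between the starts of adjacent clusters was 939 nt in MUC19 and between 2238 nt (ENPP3) and 3991 nt (SLC37A1) in the other loci.

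Listing was not even along the spans. In MUC19 the first cluster lay 47.3 kb into the span, and 3 parts of equal length, taken from the 5′ end of the span, held 2, 19 and 44 clusters. In SLC37A1 the first cluster lay 22.3 kb in and the parts held 1, 5 and 7. PDK3 had 1, 6 and 6, PTPRB 3, 12 and 10, and ENPP3 5, 9 and 9. The 5′ part of the span thus held the fewest K700E clusters at each of the 5 loci, and all parts held 0 in the WT tables. The parts were cut from the spans and not from transcript starts, of which SLC37A1 has 2 in RefSeq. Exon positions on hg19 were not used here, so clusters could not be assigned to numbered introns. The counts were therefore not set against the number of introns in each part.

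**Figure D2:**
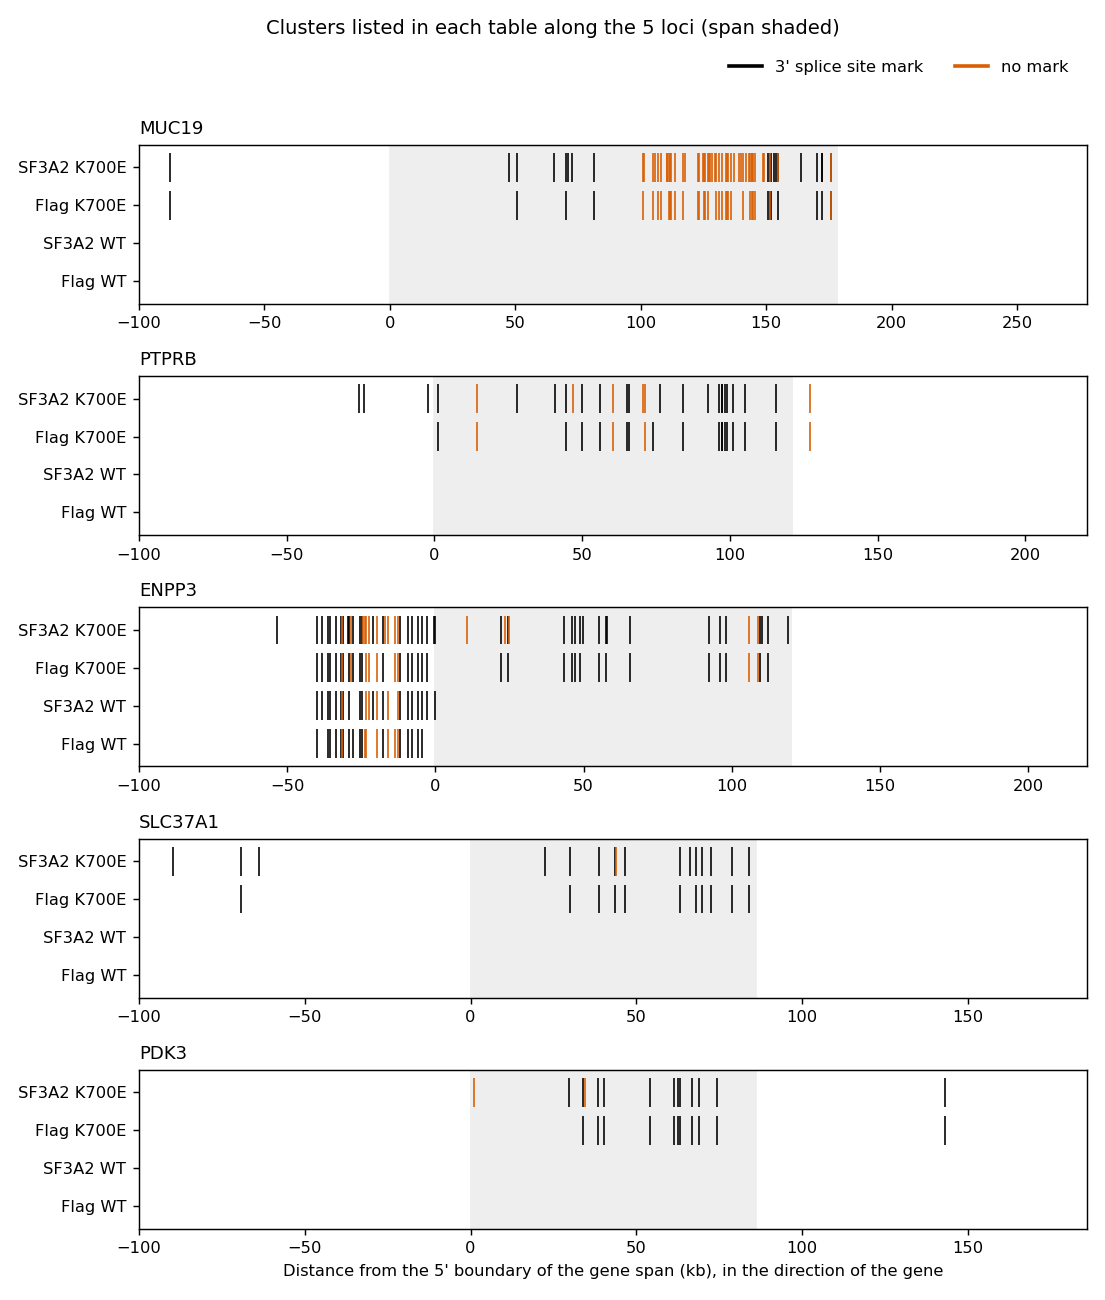
Clusters of each table (rows) along the 5 loci, placed by distance in kb from the 5′ boundary of the gene span, which is shaded, with 100 kb on either side. Black ticks carry the 3′ splice site mark and orange ticks carry none. K700E ticks run along each span, sparsest at its 5′ end, while WT ticks occur only beside ENPP3, in MED23.

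Most stretches without a WT listing in the genome were short. Clusters were put in order along each chromosome and joined into runs in which none was listed for WT. There were 20856 such runs, 14980 of them (71.8%) with a single cluster and 42 with at least 10. Of the 7125 clusters outside the 5 loci that were in both K700E tables and no WT table, 3088 (43.3%) stood between WT-listed neighbours. Only 230 of them (3.23%) were in runs of at least 10.

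All 92 such clusters of the 5 loci were in runs of at least 10, since the loci were chosen for it. The run through MUC19 was the longest in the genome with 69 clusters, 65 of them inside the gene. The PTPRB run had rank 3 by number of clusters (31, 25 of them inside), and the ENPP3 run, with 23 clusters, all inside, shared rank 4 as 1 of 3 runs of that size. The SLC37A1 run (17 clusters, 13 inside) had rank 8, and the PDK3 run (16, 13 inside) shared rank 9 with 1 other. The run of rank 2, with 43 clusters, was on chromosome 13. The reverse kind, runs with no K700E listing, numbered 5268, of which 1 had at least 10 clusters (14, on chromosome X). In the genome 4.64% of clusters were in no K700E table, and 0.375% were in both WT tables and no K700E table.

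**Figure D3:**
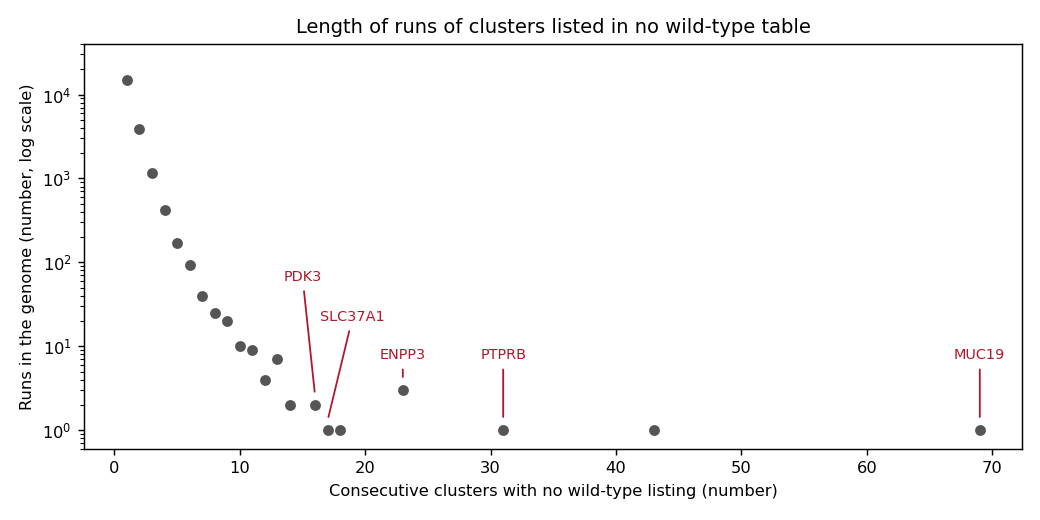
Number of runs in the genome (log scale) against the number of consecutive clusters with no WT listing. Runs of 1 cluster make up 71.8%, and the runs through the 5 loci have 16 to 69 clusters.

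Where a run ended was clearest at ENPP3. MED23, a Mediator subunit gene that starts beside ENPP3 on the opposite strand, had 34 clusters in SF3A2 K700E, 25 in Flag K700E, 25 in SF3A2 WT and 23 in Flag WT. Of these, 19 were in all 4 tables. The last WT-listed cluster, in both SF3A2 tables, lay 0.139 kb outside the ENPP3 span. The first cluster inside lay 10.5 kb past the boundary, and 0 of 23 inside were listed for WT. The change in listing thus fell between these cluster positions.

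Within 100 kb of each of the other loci, at most 4 clusters were listed in any table, against 34 beside ENPP3. CNTN1 (3′ of MUC19) and RSPH1 (5′ of SLC37A1) held 0, as did ENPP1 (3′ of ENPP3). LRRK2 (5′ of MUC19) held 2, of which 1 was in SF3A2 WT only and the other in both K700E tables. PTPRR (5′ of PTPRB) held 3 and KCNMB4 (3′ of PTPRB) held 1, all in SF3A2 K700E alone. PDE9A (3′ of SLC37A1) held 1, in both SF3A2 tables. The nearest WT-listed clusters to these loci were 108 kb (SLC37A1, 3′ side) to 1535 kb (MUC19, 3′ side) away. At these 4 loci no WT-listed cluster lay near enough to place the end of a run at the gene boundary.

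Just outside the spans, a cluster 6.03 kb beyond the 3′ boundary of PTPRB, chr12:70903937-70903970, was in both K700E tables. One 2.06 kb before its 5′ boundary, chr12:71033065-71033102, was in SF3A2 K700E alone. Neither was listed for WT. The stretch without a WT listing thus extended past the span, but PTPRR lies on the 5′ side. Whether either cluster comes from PTPRB transcripts was not tested.

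PDK3 differed from ENPP3 in its surroundings. The next gene on its strand, POLA1 (the catalytic subunit of DNA polymerase alpha), had 58 clusters in SF3A2 K700E, 43 in Flag K700E, 25 in SF3A2 WT and 22 in Flag WT. Of its 62 clusters, 18 were in all 4 tables and 12 in both K700E tables and no WT table. PCYT1B, which lies between PDK3 and POLA1 on the other strand, held 1 cluster, in both K700E tables. In the flanks of 300 kb around PDK3, K700E-only clusters made up 91.3% of the clusters listed for 1 genotype in Flag (21 against 2, 73.2 to 97.6%).

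Over all flanks of 300 kb the Flag share was 85.0% (34 against 6 clusters, 70.9 to 92.9%), and 57.8% over the genome without the loci (57.2 to 58.4%). Among clusters in any Flag table, 17.9% were listed for K700E only. In flanks of 300 kb the share was 75.0% around PTPRB (6 against 2), 66.7% around ENPP3 (4 against 2), and 100% around SLC37A1 (2 against 0) and MUC19 (1 against 0). In SF3A2 it was 93.8% (61 against 4, 85.2 to 97.6%) in the flanks and 86.6% in the genome, with 29.3% of clusters in any SF3A2 table listed for K700E only. Without the loci, the Flag share was 50.4% on chromosome 12, 53.2% on chromosome 6, 71.9% on chromosome 21 and 61.5% on chromosome X. SLC37A1 and PDK3 thus lay on chromosomes above the genome share, and MUC19, PTPRB and ENPP3 on chromosomes below it. The copy number of these regions in each line was not analysed here, and its part in the listing was not tested.

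The next question was whether the clusters were ordinary branch sites of the named genes. The tables carry no strand, so the top-ranked branch point was taken to lie off the middle of a cluster, nearer the 3′ end of the fragment. No value for the rest of the genome was set beside this reading. In 136 of 139 clusters (97.8%, 93.8 to 99.3%) the nearer end was the 3′ end on the strand of the gene. It was so in all 13 clusters of SLC37A1, all 13 of PDK3, 64 of 65 in MUC19, 24 of 25 in PTPRB and 22 of 23 in ENPP3. The 3 exceptions were chr12:40921803-40921849 in MUC19, chr12:70925965-70926006 in PTPRB and chr6:131972592-131972627 in ENPP3. In the current RefSeq annotation (GRCh38.p14) other genes overlap each locus, such as the antisense transcript PTPRB-AS1 in PTPRB, and OR2A4 and CTAGE9 in ENPP3.

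The single top-ranked branch point lay a median of 12 nt from that 3′ cluster end in MUC19, ENPP3, SLC37A1 and PDK3 and 11 nt in PTPRB, in SF3A2 K700E. In Flag K700E the medians were 12, 12, 13, 11.5 and 11 nt, in the same order. Over the 5 loci 109 of 136 SF3A2 K700E branch points (80.1%) and 73 of 89 Flag K700E branch points (82.0%) were 10 to 14 nt from the end. The loci did not separate by this distance, which rests on the same positions as the orientation.

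**Figure D4:**
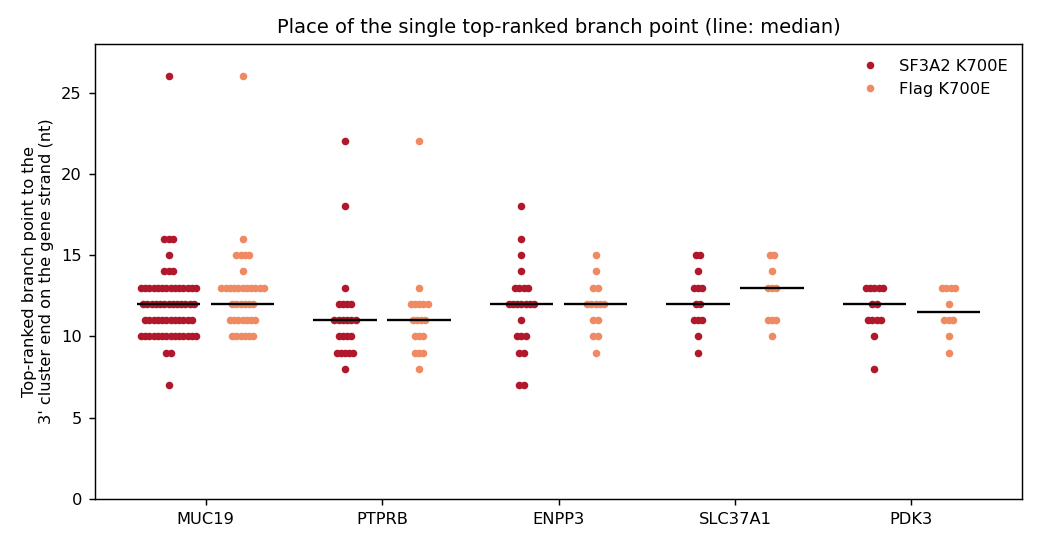
Distance in nt from the single top-ranked branch point to the 3′ cluster end on the gene strand, 1 point per cluster, for both K700E tables at the 5 loci, with the median as a line. The medians lie between 11 and 13 nt, and the longest distance is 26 nt, in MUC19.

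The authors' cluster names carry a 3′ splice site mark where, as read here, a cluster lies at an annotated 3′ splice site. It was present on 12 of 13 clusters in SLC37A1 (92.3%, 66.7 to 98.6%), 11 of 13 in PDK3, 20 of 25 in PTPRB and 18 of 23 in ENPP3 (78.3%, 58.1 to 90.3%). In MUC19 only 18 of 65 carried it (27.7%, 18.3 to 39.6%). The MUC19 interval overlapped none of the other 4. Over the 5 loci the mark was on 56.8% of clusters, and on 82.4% without MUC19. In the rest of the genome it was on 58.6%, and on 51.5% of the clusters with no WT listing. No cluster of the 5 loci carried the 5′ splice site mark that the authors gave to some others.

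The unmarked clusters of MUC19 were not scattered. From chr12:40887696 to 40936054, 44 clusters in a row had no mark, with 7 marked clusters before them and a mostly marked stretch after. Apart from the mark and the spacing, the 44 clusters, over 48.4 kb, had values close to those of the other 21. Flag K700E listed 26 of 44 (59.1%) against 12 of 21 (57.1%), and 43 of 44 were oriented as the gene against 21 of 21. The median distance to the 3′ cluster end was 12 nt in both, and the mean number of branch points in SF3A2 K700E was 1.80 ± 0.823 (SD over 44 clusters) against 1.90 ± 0.768 (21 clusters). The median spacing was 858 nt inside the stretch and 1611 nt in the rest.

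Single sites show how closely the K700E tables matched. In PTPRB the 5′-most marked cluster of both K700E tables, chr12:71029856-71029887, had branch points at 71029866 and 71029863 in each table, in the same order of rank. The 3′-most, chr12:70915302-70915333, had 70915313 and 70915310 in each. Both ends of this locus were thus listed at the same nucleotides by either antibody.

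In ENPP3 the 5′-most such cluster, chr6:131971116-131971147, had 1 branch point, 131971135, in each table. The 3′-most, chr6:132061307-132061340, had its top branch point at 132061328 in each. In PDK3 the top branch points were 24516913 at chrX:24516895-24516926 and 24557220 at chrX:24557200-24557232, in both tables. The first marked sites of MUC19 and SLC37A1 went otherwise. At chr12:40837824-40837859 SF3A2 K700E ranked 40837848 first and Flag K700E 40837844, and at chr21:43945833-43945863 the positions were 43945854 and 43945852. At the 3′-most sites of both genes the top branch point was the same in either table, 40962775 in MUC19 and 43999816 in SLC37A1.

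The nucleotide chosen within a cluster was not used to pick the loci. Both K700E tables named exactly 1 top branch point in 87 clusters, and in 77 it was the same nucleotide (88.5%, 80.1 to 93.6%). By locus the counts were 32 of 37 in MUC19, 15 of 16 in PTPRB, 12 of 14 in ENPP3, and 9 of 10 in SLC37A1 and in PDK3. In the rest of the genome the share was 78.5% (77.5 to 79.4%) for clusters of both K700E tables and no WT table. For clusters in all 4 tables it was 87.2% (86.9 to 87.5%). The share at the loci was above that of the other K700E-only clusters, but the intervals were separated only narrowly. They overlapped when MUC19 (lower limit 78.6%), PTPRB (77.6%), SLC37A1 (79.3%) or PDK3 (79.3%) was left out, and not when ENPP3 was (79.8%). Clusters at the loci also listed more branch points each, as given below, and the part of this in the agreement was not tested.

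The 10 clusters that differed did so by at most 8 nt, and by 4 nt in 5 of them. Relative to the SF3A2 K700E position, the Flag K700E position was toward the 5′ end of the gene in 7 and toward the 3′ end in 3. In 7 of the 10, the Flag choice was also on the SF3A2 list at a lower rank. Of all 147 branch points listed by Flag K700E in the shared clusters, 141 (95.9%) were listed at the same nucleotide by SF3A2 K700E. These were 67.5% of the 209 SF3A2 K700E branch points there. In the rest of the genome, clusters of both K700E tables and no WT table gave 88.5% and 56.9%.

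The number of branch points per cluster was higher at the loci than in the rest of the genome for clusters of both K700E tables and no WT table, by less than 1 SD, and close to it for clusters of SF3A2 K700E alone. In the former, the mean in SF3A2 K700E was 2.27 ± 0.743 at the loci (SD over 92 clusters) and 1.86 ± 0.852 in the rest of that class. In Flag K700E the means were 1.60 ± 0.785 and 1.20 ± 0.480. For clusters of SF3A2 K700E alone the means were 1.41 ± 0.617 at the loci (46 clusters) and 1.38 ± 0.641 in the rest of the genome. Clusters in all 4 tables had 2.72 ± 0.687 and 2.01 ± 0.887. By locus the SF3A2 K700E mean in clusters of both K700E tables was 2.06 ± 0.725 in PTPRB (18 clusters), 2.13 ± 0.777 in MUC19 (38), 2.38 ± 0.806 in ENPP3 (16) and 2.60 ± 0.516 in SLC37A1 (10). PDK3 was highest, with 3 branch points in 7 of 10 clusters and 2 in the other 3. These SDs are the spread of single clusters and not the error of a locus mean. Whether the loci differ in this number was not tested.

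Where SF3A2 K700E listed exactly 1 second-ranked branch point beside a single top one (88 clusters), it was within 6 nt of the top one in 76. It lay toward the 3′ end of the gene in 42 and toward the 5′ end in 46. A distance of 4 nt occurred in 28 clusters, 13 toward the 3′ end and 15 toward the 5′ end.

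Clusters that the Flag table lacked more often had a single branch point, at the loci as in the rest of the genome. Of the 46 in SF3A2 K700E alone, 30 had a single branch point (65.2%, 50.8 to 77.3%), against 16 of the 92 in both K700E tables (17.4%, 11.0 to 26.4%). In the rest of the genome these counts were 15982 of 22891 and, with no WT listing, 2981 of 7125. The mark was on 19 of the 46 (41.3%, 28.3 to 55.7%) and 59 of the 92 (64.1%, 53.9 to 73.2%). MUC19, mostly unmarked, held 27 of the 46 and 38 of the 92, so these shares also reflect the mix of loci. Within MUC19 the mark was on 8 of 27 (29.6%) and 10 of 38 (26.3%). In PTPRB, ENPP3, SLC37A1 and PDK3 it was less frequent in SF3A2 K700E alone, on 3 to 7 such clusters per gene. The counts in the rest of the genome were 11453 of 22891 and, with no WT listing, 4098 of 7125. In SLC37A1 and PDK3, all 10 shared clusters of each gene carried the mark and none had a single branch point. Of the SF3A2 K700E clusters at the loci, 66.7% were also in Flag K700E (58.4 to 74.0%). The share was 62.5% over all other SF3A2 K700E clusters and 23.7% over those with no WT listing. Because the loci were chosen by their K700E listing, their share describes the choice. The Flag table of this genotype was the smaller of the pair, and the part of table size in what it lacked was not tested.

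The start regions of the genes were looked up to see what the loci share beyond the listing. RefSeq (GRCh38.p14) held 5 promoter sequences for 4 of the genes, each from 250 bases before to 50 after an annotated start, and PTPRB is not among them. The promoters of MUC19, ENPP3 and PDK3 are shown because they differ widely in CpG content, with each CG in capitals. They are on the plus strand at chr12:40393144-40393443, chr6:131637052-131637351 and chrX:24465036-24465335 of GRCh38.p14, which are not hg19 coordinates.
MUC19: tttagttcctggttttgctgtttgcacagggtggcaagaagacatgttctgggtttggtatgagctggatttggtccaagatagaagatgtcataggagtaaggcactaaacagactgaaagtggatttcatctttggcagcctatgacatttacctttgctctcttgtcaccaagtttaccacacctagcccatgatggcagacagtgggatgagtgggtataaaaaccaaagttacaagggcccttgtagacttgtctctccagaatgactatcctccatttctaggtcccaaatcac
ENPP3: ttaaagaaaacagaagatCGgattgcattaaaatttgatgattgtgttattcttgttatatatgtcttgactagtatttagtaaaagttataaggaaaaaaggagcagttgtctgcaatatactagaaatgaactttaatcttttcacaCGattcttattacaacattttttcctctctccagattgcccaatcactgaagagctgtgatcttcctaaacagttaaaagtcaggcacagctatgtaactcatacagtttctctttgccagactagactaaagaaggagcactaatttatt
PDK3: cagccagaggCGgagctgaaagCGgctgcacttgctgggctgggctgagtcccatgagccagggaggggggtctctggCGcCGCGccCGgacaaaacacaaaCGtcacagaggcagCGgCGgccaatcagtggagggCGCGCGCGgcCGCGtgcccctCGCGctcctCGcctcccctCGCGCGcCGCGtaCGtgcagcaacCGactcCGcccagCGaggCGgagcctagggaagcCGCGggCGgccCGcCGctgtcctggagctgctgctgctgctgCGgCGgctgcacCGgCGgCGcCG

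The MUC19 promoter held 0 CG dinucleotides, ENPP3 2 and PDK3 39. SLC37A1 has 2 starts in the table, with 7 CG at the upstream one and 48 at the downstream one. Over all 35116 promoters of the table, 96.0% held at least 1 CG (the motif reads alike on both strands) and the median was 14. The annotated promoters therefore did not share a type by this measure, since MUC19 and ENPP3 were among the CG-poor promoters and PDK3 among the CG-rich. PTPRB is not covered, and which annotated starts these cells use was not tested.

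Other stretches of the genome had the same listing. Of 4492 intervals of 100 kb with at least 10 clusters outside the spans, 8 had at least 50% of their clusters in both K700E tables and no WT table, and the median was 4.17%. By this share the 5 most alike were 2 on chromosome 13, from 19.6 to 19.7 Mb (10 of 11 clusters, 90.9%) and from 19.5 to 19.6 Mb (18 of 26, 69.2%). Then came chromosome 15 from 81.5 to 81.6 Mb (8 of 13), chromosome 19 from 29.1 to 29.2 Mb (9 of 16) and chromosome 17 from 38.6 to 38.7 Mb (8 of 15). Both chromosome 13 intervals had 0 clusters in the WT tables, as at the 5 loci, whereas the chromosome 15 interval had 2 in SF3A2 WT, chromosome 17 had 1 there, and chromosome 19 had 1 in each WT table. Of all 4492 intervals, 9 had no WT-listed cluster at all.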

How the data were processed

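U2 IP-seq libraries of K562 cells were used as 4 deposited tables. The submitters' processing notes name cutadapt, STAR 2.7.6a and the hg19 build. How clusters were found, libraries pooled and branch points predicted is not stated there. The labels give 11 to 14 PCR cycles and inserts between 24 and 55 nt, and a note on read layout names HEK293. The deposited branch point rank is a score from 1 to 3, with ties. Coordinates are those of the tables, with an unknown first base (0 or 1). In SF3A2 K700E, 1 row without a cluster name was left out.

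The gene spans were given with the choice of loci, and spans of neighbours and markers came from general knowledge; names, chromosomes and order of neighbours matched RefSeq GRCh38.p14, whose coordinates were not used. A cluster belonged to a span if it touched it. Members, spans and lists were chosen with earlier results of these data known. Sites named were the 5′-most and 3′-most marked cluster of both K700E tables per locus; those just outside the spans were chosen after their values were seen. Listing, orientation, top branch points and runs were tabulated with Python 3.11.15, pandas 2.3.3 and numpy 2.4.6, and run finding was tested on simulated data. Wilson intervals are at the 95% level, and a floor of 3 counts was used for 0. No p-value was computed, because each group has 1 table. Alternatives covered spans, overlap, orientation, marks, widths, merging, ties and loci left out. A further marker gene is not reported here.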

Additional observations from a re-analysis of the deposited data

How the results depend on the processing

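Of 51 alternatives, 46 left a value within the interval or SD of its main value and 5 moved it. The share of clusters in both K700E tables and no WT table, 66.2% over the 5 loci, was 74.7% in marked and 55.0% in unmarked clusters. MUC19 held 47 of the 60 unmarked clusters and had the lowest such share of the loci, 58.5%. This difference therefore does not separate the mark from the locus. Widening the spans by 10 kb lowered the share with no WT listing from 100% to 95.9%, because 6 WT-listed clusters of MED23 entered beside ENPP3. The share with the 3′ splice site mark moved from 56.8% to 82.4% without MUC19. The K700E share in the flanks was 93.8% with SF3A2 in place of Flag. No paired analysis was possible because the 3 SF3A2 libraries of each genotype are pooled in 1 table, and no library could be left out. With no read numbers, a cluster missing from a WT table is not shown to be absent from those cells.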

Other observations

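The authors numbered clusters along the genome, and some numbers have no entry in the 4 tables used here. Between the first and the last cluster of each locus this held for 7 of 72 numbers in MUC19, 2 of 27 in PTPRB and 2 of 25 in ENPP3. It held for 0 of 13 in SLC37A1 and 0 of 13 in PDK3. Over the 5 loci the share was 7.33%, and over the genome 7.13% of 132254 numbers.

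Close pairs of clusters were present at the loci. A start within 200 nt of the start of another cluster was found for 14 of 139 clusters (10.1%), against 16.7% in the rest of the genome. The closest pair, 124 nt apart, was in MUC19, and the closest pair in PTPRB was 139 nt apart.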
